A study of Mus musculus with 8 samples.

Results

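The Notch pathway genes of embryonic back skin epithelium were followed across Foxi3 null and wild-type mouse embryos. The set holds 10 of the 26165 genes in the deposited table. They are the receptor genes Notch1, Notch2 and Notch3, the ligand genes Jag1, Jag2 and Dll1, the glycosyltransferase gene Lfng, and the target genes Hes1, Hey1 and Nrarp. They were picked by gene symbol, as a pathway of stratifying epidermis, with earlier results of these data known. Each symbol had 1 row. Expression had been measured on exon arrays in 8 embryos at stage E15.5, with 1 array per embryo. The 4 Foxi3 null embryos (Foxi3-/-, given in the series description as total null) and the 4 wild-type embryos (Foxi3+/+) came from 4 litters of C57/Bl6 background. Null embryos had been recognised by their missing jaw and then genotyped. Epithelium had been lifted from the dermis with dispase, an enzyme that cuts the attachment between the layers, so each sample holds all epidermal layers together with hair placodes and germs. Foxi3 encodes a forkhead transcription factor of developing skin appendages.

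Notch receptors are membrane proteins that are activated by ligands on neighbouring cells. Binding leads to cleavage of the receptor, and the freed intracellular domain enters the nucleus, joins the DNA-binding protein Rbpj and switches on genes such as Hes1, Hey1 and Nrarp. In stratifying epidermis the pathway is known for promoting the step from basal to spinous cells.

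The median log2 intensity per array was 5.15 to 5.29. The array signal of the targeted gene Foxi3 was well above that median in every embryo. It was 8.62, 8.43, 8.45 and 8.19 in null 1 to 4, and 8.96, 9.07, 9.20 and 8.55 in wild type 1 to 4, so that wild type 4 lay below null 1. The difference was −0.52 (SE 0.15, 95% interval −0.85 to −0.19, limma unadjusted p = 0.00606, adjusted p = 1.00). By the exact two-sided permutation test p was 0.0571. Whether the probes lie in the deleted part is unknown here, so the signal does not check the genotype labels. The epithelial identity of the samples was checked with marker lists. All 7 basal epidermis genes and all 7 spinous genes had means above the median of all genes (5.22), and 0 of 8 endothelial genes did. Of 10 dermal fibroblast genes, 7 did, as did 5 of 7 Schwann cell and nerve genes, 3 of 6 mural cell genes and 2 of 7 skeletal muscle genes. By the Y-linked gene Ddx3y, 1 null and 2 wild-type embryos were male (null 3, wild type 3 and wild type 4). Samples that stood apart were wild type 4 and Foxi3 null 4, with mean log2 intensities of 9.62 and 8.64 over 10 immediate-early genes induced by tissue handling, against 7.12 to 7.58 in the other 6 samples. Foxi3 null 2 stood apart in the mean of the 10 fibroblast genes, 8.76 against 6.66 to 7.22 elsewhere. Foxi3 null 3 and wild type 3 were lowest in the spinous list mean, at 10.48 and 10.62 against 10.80 to 11.09 elsewhere. They were also lowest in the granular and cornified list mean, at 7.35 and 7.76 against 8.05 to 8.75. Between genotypes, the basal list mean was 10.253 to 10.29 in null and 10.294 to 10.35 in wild type. That is a difference of −0.039 (exact permutation p = 0.0286). The spinous, granular and cornified, and periderm lists differed by −0.16, −0.43 and −0.18 (exact permutation p = 0.314, 0.229 and 0.4). The part of these lists in the Notch gene values was not tested.

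The DNA just upstream of the members was searched for letters bound by factors of the pathway, by forkhead factors and by AP-1. RefSeq promoter windows (GRCm38.p6) were at hand for 8 of the 10 members. The target genes Hes1 and Hey1 had none and were not searched. The 250 bases before each start were read on both strands. The motifs were GTGGGAA (Rbpj), CACGTG (the E-box bound by Hes and Hey class repressors) and TGTTTAC (forkhead factors). Also searched was TGANTCA, a loose form of the site of AP-1, the Fos and Jun dimer. A match was found in 3 members, whose windows are shown 5′ to 3′ with the matched letters in capitals, because Lfng and Nrarp are feedback genes of the pathway and Dll1 is one of its ligands.
Lfng, chr5:140607091-140607340, plus strand: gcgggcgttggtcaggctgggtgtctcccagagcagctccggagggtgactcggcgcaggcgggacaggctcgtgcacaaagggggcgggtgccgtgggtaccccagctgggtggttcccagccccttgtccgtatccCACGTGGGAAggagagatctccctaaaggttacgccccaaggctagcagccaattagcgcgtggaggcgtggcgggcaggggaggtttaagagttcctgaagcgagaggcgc
Nrarp, chr2:25180508-25180757, plus strand: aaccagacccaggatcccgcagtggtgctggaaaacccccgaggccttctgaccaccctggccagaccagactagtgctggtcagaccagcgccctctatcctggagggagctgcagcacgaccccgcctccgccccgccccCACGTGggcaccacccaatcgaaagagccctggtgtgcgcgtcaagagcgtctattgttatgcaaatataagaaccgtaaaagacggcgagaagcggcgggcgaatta
Dll1, chr17:15376933-15377182, minus strand: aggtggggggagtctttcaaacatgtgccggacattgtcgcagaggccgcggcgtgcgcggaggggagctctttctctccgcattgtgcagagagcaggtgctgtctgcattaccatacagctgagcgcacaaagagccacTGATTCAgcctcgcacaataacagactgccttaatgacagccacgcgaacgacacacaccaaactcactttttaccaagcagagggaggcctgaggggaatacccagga
In Lfng, CACGTG and GTGGGAA overlapped in a single run of letters that reached from base 112 to base 103 before the start. Nrarp held CACGTG from base 108 to base 103. One of the Dll1 starts held TGATTCA from base 109 to base 103, a match to the pattern TGANTCA, in which N is any letter. With T in the middle it is not the AP-1 consensus, which has C or G there. None of the 4 motifs was found in the windows of Notch1, Notch2, Notch3, Jag1 or Jag2, and none of the searched windows held the forkhead letters. Among all 32851 windows in the table, 5.42% held GTGGGAA, 6.02% CACGTG, 3.17% TGTTTAC and 6.75% TGANTCA. The share holding any of the 4 was not counted. The member windows had a GC content of 56.0% to 87.2%, against a median of 52.4% over all windows. These matches are descriptions of the sequence and do not show binding.

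The comparison of the genotypes asked whether Notch pathway transcripts depend on Foxi3 in this tissue. Of the 10 members, 9 were above 0 and 1 was below 0 in the difference of null minus wild type, where 46.0% of all genes were above 0. None rose or fell in the test over all 26165 genes. Over the whole table limma called 3 genes, or 0.0115%, at an adjusted p under 0.05, with 0.00382% of genes higher and 0.00764% lower in null. At an unadjusted p under 0.05 limma counted 0 of 10 members, against 3.72% of all genes. In 0 of 10 members did the null and wild-type samples separate without overlap, against 1.95% of all genes. The median difference of the members was 0.076 on the log2 scale, against −0.0083 for all genes. For 9 of 10 members the difference was smaller than the residual SD between embryos of a group. The 95% intervals of all 10 differences included 0. Over the 10 intervals, the lowest bound was 0.796-fold (Hes1) and the highest 1.38-fold (Hey1), on the scale of RMA intensities.

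**Figure D1:**
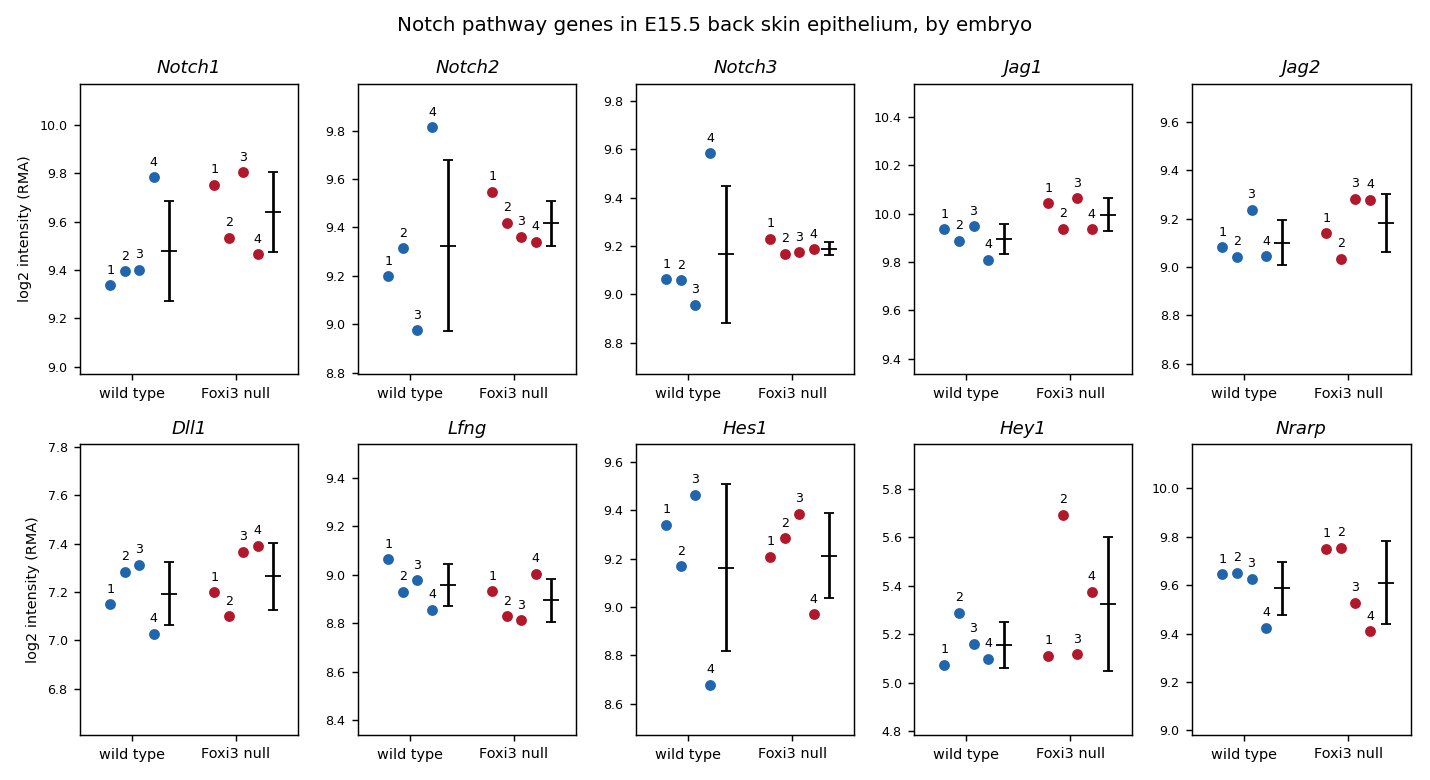
Log2 intensity (RMA) of each of the 10 genes in each embryo, on axes of equal span, with the embryo's replicate number above its point. Black bars give the mean and SD of 4 embryos. For Notch1, Notch2 and Notch3 wild type 4 lies above the other wild-type embryos, and for Hey1 Foxi3 null 2 lies above the others.

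For all 3 receptor genes, wild type 4 lay above the other wild-type embryos. Notch1, the main receptor of the suprabasal commitment step in mouse epidermis, had log2 intensities of 9.75, 9.53, 9.80 and 9.47 in Foxi3 null 1 to 4. In wild type 1 to 4 it had 9.34, 9.39, 9.40 and 9.78. All null embryos thus lay above wild type 1, 2 and 3, while wild type 4 lay above 3 of the 4 null embryos. The null mean was 9.64 ± 0.16 and the wild-type mean 9.48 ± 0.20 (SD, n = 4 each), a difference of 0.16 (SE 0.12, 95% interval −0.11 to 0.43, limma adjusted p = 1.00). The exact two-sided permutation p was 0.20.

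Notch2, a receptor whose role in epidermis overlaps with that of Notch1, showed the same arrangement. Its log2 intensity was 9.55, 9.42, 9.36 and 9.34 in null 1 to 4, and 9.20, 9.31, 8.97 and 9.81 in wild type 1 to 4. Wild type 4 was the highest of all 8 embryos, and each of the other 3 wild-type embryos lay below every null embryo. The difference of the means was 0.092 (SE 0.16, 95% interval −0.27 to 0.45, limma adjusted p = 1.00), from 9.32 ± 0.35 in wild type to 9.42 ± 0.09 in null (SD, n = 4 each). It was −0.024 without wild type 3.

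Notch3, a receptor that acts beside Notch1 and Notch2 in the spinous layer and is known above all from vascular mural cells, was the third with this arrangement. It lay at 9.23, 9.17, 9.18 and 9.19 in null 1 to 4, and at 9.06, 9.06, 8.96 and 9.58 in wild type 1 to 4. The null embryos were close together, with an SD of 0.027 against 0.28 in wild type. The difference was 0.024 (SE 0.13, 95% interval −0.27 to 0.31, limma adjusted p = 1.00), and it was −0.011, −0.012 and −0.046 without wild type 1, 2 and 3.

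Without wild type 4, an embryo singled out after its values were seen, the groups did not overlap for any of the 3 receptor genes, with null above wild type in each. The same held for 1.57% of all genes with null above and for 3.44% in either direction. The differences then were 0.26 for Notch1, 0.26 for Notch2 and 0.16 for Notch3, at limma unadjusted p = 0.0286, 0.0323 and 0.0368, and none passed over all genes (limma adjusted p = 1.00 for each). For Notch1 the 3 remaining wild-type embryos had a mean of 9.38 ± 0.035 (SD, n = 3). Without both samples numbered 4 the differences were 0.32, 0.28 and 0.16, with limma adjusted p = 0.711 for Notch1 and 0.760 for the other two receptors. In that setting the 3 receptors had to stay higher in null without overlap, because leaving out a further embryo cannot bring overlap back. The share of all genes with null above was then 3.70%.

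Wild type 4 differed from its group in other genes too. It exceeded the mean of the other 3 wild-type embryos by 0.41 for Notch1, 0.65 for Notch2 and 0.56 for Notch3, and 90.9%, 97.2% and 95.8% of all genes, respectively, differed by less in that embryo. All 10 of the immediate-early genes were highest in wild type 4. The list mean ranged from 7.19 to 9.62 in wild type and from 7.12 to 8.64 in null, and every one of its genes had a mean above the median of all genes. Of 7 spinous genes, 6 were highest in wild type 4, with a list mean of 11.09 against 10.48 to 11.005 in the 6 samples not numbered 4. Of 8 granular and cornified genes, 4 were highest there, with a list mean of 8.75 against 7.35 to 8.58. In Foxi3 null 4, second in the immediate-early list mean, Notch1, Notch2 and Notch3 were 9.47, 9.34 and 9.19. The part of these lists in the receptor values was not tested.

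The differences of the ligand genes lay between 0.071 and 0.099. Jag1, a ligand of suprabasal epidermis and of the hair follicle, was 10.04, 9.94, 10.06 and 9.93 in null 1 to 4, and 9.94, 9.89, 9.95 and 9.81 in wild type 1 to 4. Foxi3 null 1 and null 3 lay above all wild-type embryos, and the other null embryos lay among them. The difference was 0.099 (SE 0.064, 95% interval −0.046 to 0.24, limma adjusted p = 1.00). The exact two-sided permutation p was 0.143, the lowest of the 10 genes. Jag1 was the 1 member whose difference exceeded its residual SD between embryos, 0.065.

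Jag2, a ligand of the basal layer, was 9.14, 9.03, 9.28 and 9.28 in null embryos and 9.08, 9.04, 9.24 and 9.04 in wild type. Its lowest and its highest value of all 8 were both in null embryos, null 2 and null 3. The difference was 0.082 (SE 0.080, limma adjusted p = 1.00), and it ran from 0.050 without null 3 to 0.13 without null 2.

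Dll1, a ligand that marks clusters of stem cells in human epidermis and the dermal condensate in mouse skin, was 7.20, 7.10, 7.37 and 7.39 in null embryos and 7.15, 7.28, 7.31 and 7.03 in wild type. Wild type 4 was the lowest of all embryos and null 4 the highest. The difference was 0.071 (SE 0.094, limma adjusted p = 1.00). It ran from 0.015 without wild type 4 to 0.13 without null 2, and was −0.027 without both samples numbered 4.

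Lfng encodes lunatic fringe, a Golgi enzyme that extends sugars on Notch and so shifts its response between ligand classes. It was 8.93, 8.83, 8.81 and 9.004 in null embryos and 9.06, 8.93, 8.98 and 8.86 in wild type. It was the 1 member below 0, at −0.063 (SE 0.073, 95% interval −0.23 to 0.10, limma adjusted p = 1.00). Foxi3 null 2 and null 3 lay below all wild-type embryos, and null 4 lay above 3 of them. The difference ran from −0.099 without null 4 to −0.027 without wild type 1.

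**Figure D2:**
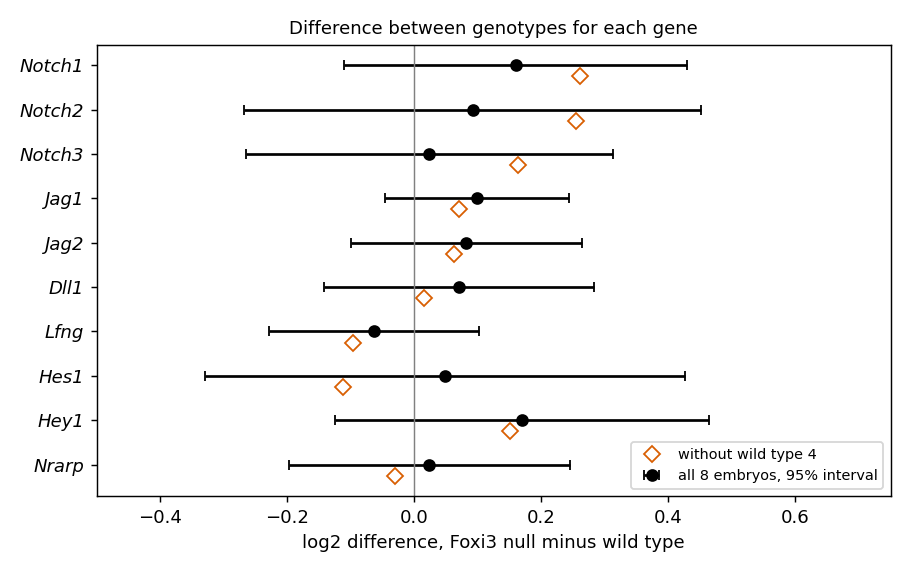
Difference of the mean log2 intensity, Foxi3 null minus wild type, for each gene. Filled points and bars show all 8 embryos with the 95% interval, and open diamonds the value without wild type 4. Every interval crosses 0, and the diamonds of the 3 receptor genes lie between 0.16 and 0.26.

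In the target genes the embryos stood in another order than in the receptors. Hes1, a transcriptional repressor and classic Notch target that keeps spinous cells from differentiating early, was 9.21, 9.28, 9.38 and 8.97 in null 1 to 4. In wild type 1 to 4 it was 9.34, 9.17, 9.46 and 8.68. Wild type 4, highest for Notch2 and Notch3, was thus the lowest of all embryos for Hes1, and null 4 the next lowest. In wild type 4 Hes1 lay 0.64 on the log2 scale under the other 3 wild-type embryos, and 97.1% of all genes differed by less. The genotype difference was 0.049 with all embryos (SE 0.17, limma adjusted p = 1.00), −0.11 without wild type 4, −0.0089 without null 3 and −0.032 without both samples numbered 4.

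Nrarp, a small ankyrin repeat protein that is induced by Notch and limits it, was 9.75, 9.75, 9.53 and 9.41 in null embryos and 9.64, 9.65, 9.63 and 9.42 in wild type. The samples numbered 4 were the lowest of their groups, as for Hes1. The null mean was 9.61 ± 0.17 and the wild-type mean 9.59 ± 0.11 (SD, n = 4 each). The difference was 0.024 (SE 0.098, limma adjusted p = 1.00) and changed sign when wild type 4 (−0.030), null 1 (−0.023) or null 2 (−0.024) was left out and with sex as a covariate (−0.0055).

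Hey1, a repressor related to Hes1, was 5.11, 5.69, 5.12 and 5.38 in null embryos and 5.07, 5.29, 5.16 and 5.10 in wild type. These values lie near the median of all genes, and low values cannot be told from background here. Foxi3 null 2 was the highest of all embryos, and null 1 and null 3 lay within the wild-type range. The difference was 0.17 (SE 0.13, 95% interval −0.12 to 0.46, limma adjusted p = 1.00), and it was 0.047 without null 2. Hey2, a further repressor of this family that is not among the members, was 4.99 in null 2 and 4.31 to 4.57 in the other embryos.

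Markers of dermal cells were also high in Foxi3 null 2. Of 10 fibroblast genes, 9 were highest there, with list means of 6.66 to 8.76 in null and 6.77 to 7.22 in wild type. For 6 mural cell genes the list mean was 5.79 in null 2 against 5.26 to 5.53 elsewhere. Only 1 of the 6 was highest in that embryo, Pdgfrb, at 6.66 against 4.30 to 4.64. For 8 endothelial genes it was 4.41 against 4.05 to 4.31, with 4 of the 8 highest there. The part of these cells in the Hey1 value was not tested. In whole epithelium, fewer cells of a type and less RNA per cell cannot be told apart.

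**Figure D3:**
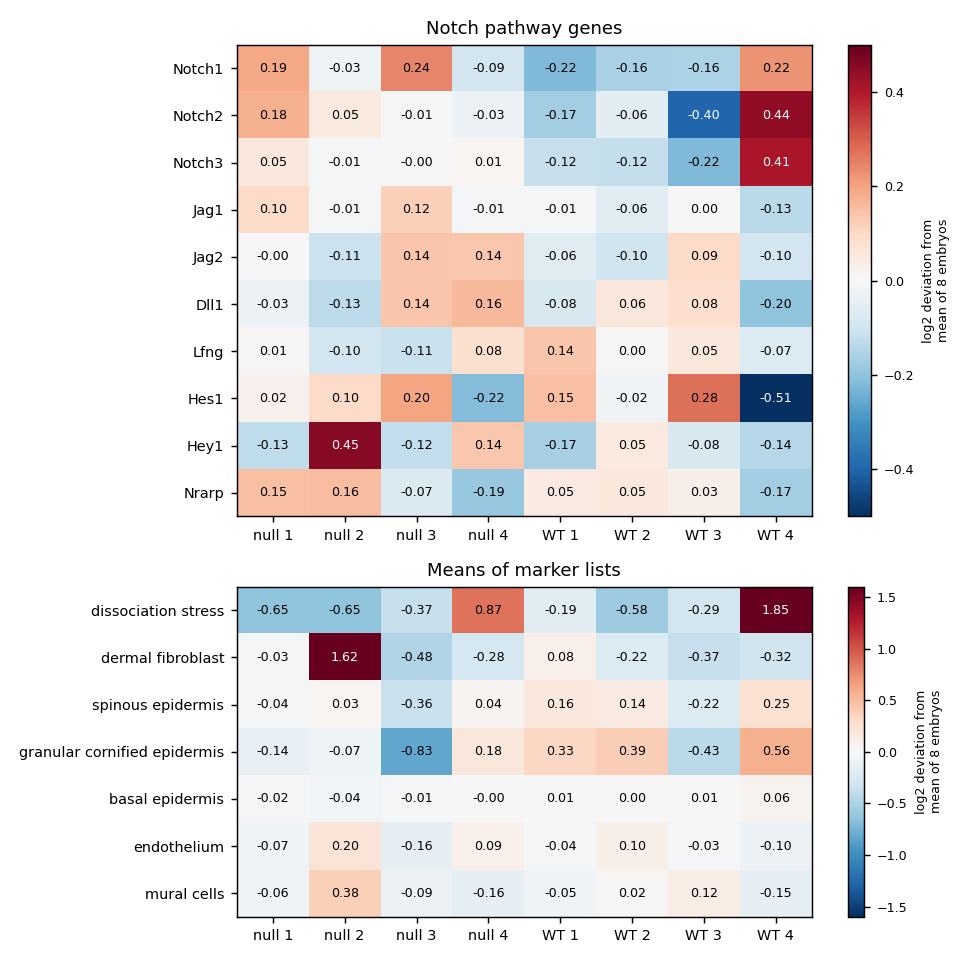
Log2 deviation of each embryo from the mean of all 8 embryos, for the 10 genes (upper panel) and for the means of 7 marker lists (lower panel, on a wider colour scale). Wild type 4 shows high receptor genes beside low Hes1 and the highest dissociation stress mean, and null 2 shows high Hey1 beside the highest fibroblast mean.

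Counted over the 10 genes, wild type 4 was most often at the edge of the data. It was the highest of 8 embryos for 2 genes and the lowest for 3 (Jag1, Dll1 and Hes1). Its mean absolute deviation from the gene means was 0.24 on the log2 scale, against 0.068 to 0.14 in the other embryos. Foxi3 null 3 was the highest for Notch1, Jag1 and Jag2. Foxi3 null 1 and wild type 2 were at neither edge for any gene.

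The other genes of the pathway were read from a list of 47 genes by role, of which 46 were measured. Of the 36 measured genes that are not members, 10 were above 0 and 26 below 0, with a median of −0.033, and none rose or fell over all genes. At an unadjusted p under 0.05 limma counted 1 of the 36, Neurl1b, where 3.72% of all genes were counted. The groups did not overlap in 1 of the 36, Rfng, where 1.95% of all genes did so. Both counts are close to the share of all genes.

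Among receptors and ligands, Notch4, Dll3 and Dll4 were at −0.025 (SE 0.078), −0.11 (SE 0.074) and −0.066 (SE 0.098). Notch4 and Dll4 are known from endothelium, and Dll4 was dim (4.85 in wild type). Of the glycosyltransferases, radical fringe (Rfng) was 7.57, 7.61, 7.54 and 7.63 in null embryos and 7.65, 7.69, 7.68 and 7.65 in wild type. All null embryos lay below all wild-type embryos, and the difference was small at −0.079 (SE 0.055, limma adjusted p = 1.00). The exact two-sided permutation p was 0.0286, the smallest that 70 arrangements allow. Manic fringe (Mfng), dim at 4.81 in wild type, was at 0.18 (SE 0.096).

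The 7 genes of receptor cleavage given here were all below 0, with a median of −0.050, and 0 of 7 passed over all genes. Among all genes 46.0% were above 0. Adam10 (−0.0021), Ncstn (−0.0029) and Adam17 (−0.0083) were close to 0. The list also included Aph1a and Aph1b, alternative subunits of the gamma-secretase complex, at −0.20 (SE 0.22) and −0.16 (SE 0.12). In the nuclear complex, Maml2 and Maml3, coactivators of the Notch and Rbpj complex, were at −0.080 (SE 0.13) and −0.082 (SE 0.094). Among further targets, Hes5 was at −0.071 (SE 0.085) and Hey2 at 0.23 (SE 0.12).

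Of 13 genes of trafficking and turnover, 10 were below 0. Neurl1b, a ubiquitin ligase that promotes endocytosis of Notch ligands, was 6.22, 5.92, 5.89 and 6.03 in null embryos and 6.18, 6.35, 6.15 and 6.28 in wild type. Foxi3 null 1 lay among the wild-type embryos, and the other 3 null embryos lay below them. The difference was −0.23 (SE 0.088, limma unadjusted p = 0.0298, adjusted p = 1.00). Neurl3, of the same protein family, was at −0.36 (SE 0.17, limma adjusted p = 1.00), with wild type 3 (5.14) within the null range of 5.05 to 5.56.

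**Figure D4:**
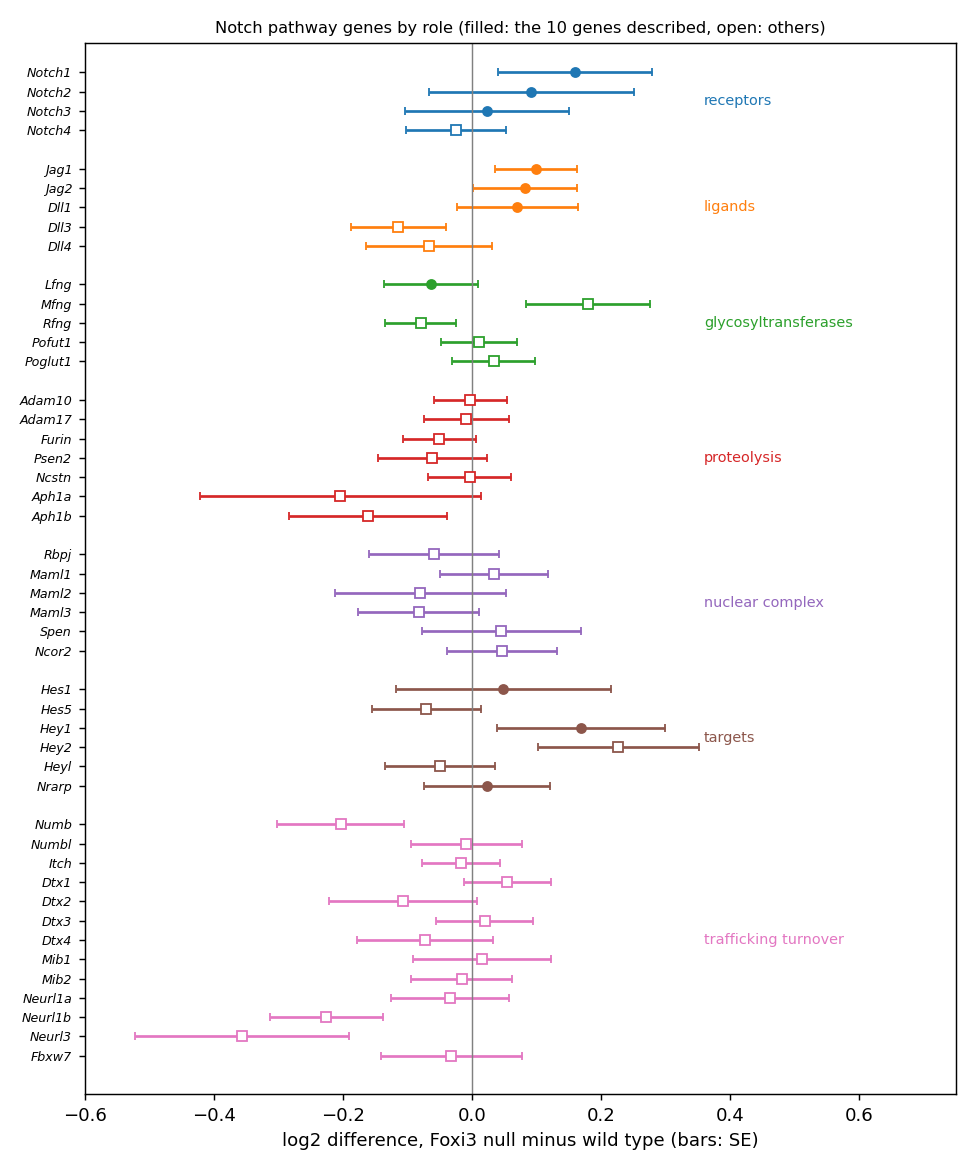
Difference of the mean log2 intensity, Foxi3 null minus wild type, for 46 measured Notch pathway genes, grouped by role, with bars of 1 SE. Filled symbols are the 10 genes described in detail. The 7 genes of proteolysis all lie below 0, and none of the 46 genes passed over all genes.

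The genes whose pattern over the 8 embryos was most like a member's were found for the member of lowest unadjusted p among receptors, ligands and targets. Likeness was the mean absolute difference of log2 values after centring each gene on its mean. Closest to Notch1 were Vps13b (0.040), Trbj1-6 (0.046) and Herc2 (0.048), against a mean absolute deviation of Notch1 itself of 0.17. Closest to Jag1 were the gene ENSMUSG00000039100 (0.016), whose deposited symbol reads as a calendar date, Eif4a3 (0.023) and Rab15 (0.024), against 0.055 for Jag1 itself. Closest to Hey1 were 4833403I15Rik (0.035), Gfra3 (0.040) and Rasgrp3 (0.041), against 0.16 for Hey1 itself. These are descriptions over 8 samples, picked from all named genes.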

How the data were processed

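The values are deposited log2 intensities per Ensembl gene, which the authors obtained with RMA per the submitters' processing notes. That procedure subtracts background, equalises arrays and combines the probes of a gene. Version, probe annotation and build: not given in the sources used here. RMA compresses large differences and those of dim genes. Symbols came from the deposited table, whose deposited log2 group means matched those recomputed here to within 7.5e-09. Another 8 array columns had no name that matched a sample and were not used. There is no read depth, and precision depends on the number of arrays.

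Groups and replicate numbers came from the sample titles. Litters are not linked to embryos in the labels, so embryos were treated as independent. All 26165 genes were fitted in R 4.3.3 with limma 3.58.1, using lmFit and eBayes (two-sided, Benjamini-Hochberg over all genes, adjusted p under 0.05, no covariate). Exact permutation tests covered 70 arrangements. The fit was tested on simulated data without effects shared within a sample. All changes put in were larger than any member difference here, so that test does not bear on differences of this size. Motifs were searched with Python 3.11.15. All 10 members were matched by symbol to RefSeq names of GRCm38.p6.

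The members, the gene lists and the alternatives were chosen with earlier results of these data known. Named beside the members were pathway genes that passed, those without overlap and the 2 of lowest unadjusted p in each role. Foxi3 and the 3 most alike genes described were named too. Outside these rules, Adam10, Ncstn and Adam17 were named as genes of receptor cleavage with differences close to 0. Of the pathway list, 1 gene is not reported here. Alternatives were median centring, quantile normalisation, the brighter genes alone (above the median), 1 row per symbol, array weights, trend with robust moderation, no moderation, a sex covariate, a replicate block, an adjusted p under 0.1, a 1.5-fold limit, and leaving out each sample or both samples numbered 4. An alternative on a second table of sample values was not run, since the values used here are that table.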

Additional observations from a re-analysis of the deposited data

Results flagged for a closer look

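An embryo far from the rest of its group was looked for by dividing its distance to the closest group member by the range of the group, and the quotient is printed in parentheses. Of 66 such group values, 6 exceeded the 95% critical value of Dixon's test, where chance gives about 3.3. Wild type 4 stood high for Notch1 (0.857) and Notch3 (0.832) and low for Nrarp (0.892). The same embryo stood high for the mean of the basal epidermis list (0.865), at 10.35, and of the dissociation stress list (0.837), at 9.62. Foxi3 null 2 stood high for the mean of the skeletal muscle list (0.877), at 5.0015, while wild type 1 and wild type 2 were higher still at 5.31 and 5.24. Hey1 in null 2 and Hes1 and Notch2 in wild type 4 were not singled out by this measure. Neither were the fibroblast list mean in null 2 and the dissociation stress list mean in null 4.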

How the results depend on the processing

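The count of members and of Notch pathway genes that passed stayed at 0 under all 20 alternatives run. The lowest limma adjusted p of a member in any of them was 0.619, for Jag1. The 3 calls over the whole table went to 0 without moderation, with the replicate block and without both samples numbered 4, and ranged from 0 to 4 when single samples were left out, with 0 without wild type 1, wild type 2 or wild type 4. Members without overlap numbered 0 to 3 when single samples were left out, the 3 being the receptors without wild type 4. The same 3 had to remain without both samples numbered 4, and no other member joined them. Using the brighter genes alone, 1 row per symbol, either change of moderation or the replicate block cannot alter a member difference. With these settings counted in, 168 of 180 recomputed member differences kept their direction. The 12 others were Dll1 (−0.027) and Hes1 (−0.032) without both samples numbered 4, Nrarp with the sex covariate (−0.0055), and values in the leave-one-out ranges of Hes1 (−0.11 to 0.15), Notch2 (−0.024 to 0.26), Notch3 (−0.046 to 0.16) and Nrarp (−0.030 to 0.091). The cause was not tested. The deviations of same-numbered samples had r over genes of 0.13, −0.043, 0.49 and 0.36 for numbers 1 to 4. Unlike-numbered samples reached 0.26 (null 4 with wild type 2) and 0.16 (null 2 with wild type 1). Not every sample correlated best with its own number. The labels give no meaning to the numbers, which were therefore not taken as pairs, and the replicate block called 0 genes. The block could not change the member differences, since every number occurs equally in both genotypes. With 4 arrays per group, changes within the 95% intervals given remain possible.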
